A study of Homo sapiens with 16 samples.

Results

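Genes of serine synthesis and folate one-carbon metabolism were followed through ATF4 knockdown and 5-fluorouracil (5-FU) treatment of SW620 colorectal cancer cells. They were PHGDH, PSAT1, PSPH, SHMT1, SHMT2, MTHFD1, MTHFD1L, MTHFD2 and MTHFD2L, taken by exact gene name from the table of read counts. All 9 of 9 names were found among 58735 genes, each on 1 line of the table, and all 9 passed the filter on low counts that left 17309 genes for testing.

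SW620 is a human line grown from a lymph node metastasis of a colorectal carcinoma, and it was cultured in DMEM with fetal bovine serum. The control line carried a scrambled short hairpin RNA (scramble) and the knockdown line a hairpin against ATF4 (shATF4). The scramble line gave 3 untreated libraries, 3 after 24 h in 5 µM 5-FU and 2 after 48 h in 5 µM 5-FU, and the shATF4 line gave the same numbers. The 4 libraries titled 48 h carry a treatment tag of 24 h and were placed at 48 h by their titles and the stated design. Whether replicates came from separate cultures is not stated, and the p-values here speak of the spread among these libraries, and that spread may be technical. The study used 1 hairpin line and 1 control line, so loss of ATF4 cannot be told apart from other differences between the lines. No time in culture is given for untreated cells, so drug and culture time cannot be told apart either.

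Serine is made from a glycolytic intermediate in a short pathway: PHGDH oxidises 3-phosphoglycerate, PSAT1 adds the amino group and PSPH removes the phosphate. SHMT1 in the cytosol and SHMT2 in mitochondria then move a carbon from serine to tetrahydrofolate, giving glycine. The mitochondrial enzymes MTHFD2, MTHFD2L and MTHFD1L carry this carbon to formate, and cytosolic MTHFD1 reloads formate onto folate for purine and thymidylate synthesis. ATF4 is a stress-responsive transcription factor known to activate PHGDH, PSAT1, PSPH, SHMT2 and MTHFD2 in many cell types, and 5-FU is a fluorinated pyrimidine whose metabolites inhibit thymidylate synthase, an enzyme that uses a folate carbon.

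Libraries held 14571611 to 17824188 counts, and the members had 99 to 8323 counts per library. All 8 colorectal epithelial markers were tested and together stood at 11100 to 12500 CPM untreated and 6500 to 7500 CPM at 48 h (CPM is the read count relative to a library size scaled by the TMM method). KRT8 was the largest part of this sum, with means of 6710 CPM untreated and 3865 CPM at 48 h in scramble cells. The mean of CDH1 rose there from 189.9 to 374.6 CPM, of KRT20 from 1.47 to 10.95 and of CDX2 from 12.93 to 17.86. The means of these 3 were also higher at 48 h in shATF4 cells, but by other amounts. There CDH1 went from 197.1 to 240.8 CPM, CDX2 from 14.26 to 35.18 and KRT20 from 1.328 to 1.698, the last with 16 to 32 counts. EPCAM, KRT8, KRT18, KRT19 and VIL1 were lower in both lines. Of the markers of other cell types, PTPRC, CD3E and CD68 of leukocytes and COL1A2 and DCN of fibroblasts had 0 to 3 counts. The others had more, CD14 of leukocytes 1 to 19 and CDH5, PECAM1 and VWF of endothelium 0 to 8, 19 to 105 and 23 to 151. The fibroblast genes COL1A1 and PDGFRB had 106 to 360 and 13 to 165 counts. Summed levels of the 4 leukocyte markers were at most 1.41 CPM. Those of the 3 endothelial markers were 3.67 to 5.12 CPM untreated and 6.75 to 13.7 CPM in 5-FU, and those of the 4 fibroblast markers 8.13 to 14.6 and 18.4 to 30.7 CPM. The part of these marker shifts in the results was not tested. Among untreated scramble libraries, replicate 2 had 1.42% of counts in mitochondrial coding genes, against 0.753% and 0.766%. Among shATF4 libraries at 24 h, replicate 3 had 0.0713% in 7SL RNA, against 0.0224% and 0.0241%.

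ATF4 itself was measured first as a check of the labels. In scramble cells it stood at 387.7, 363.6 and 383.7 CPM untreated, at 270.1, 285.3 and 280.1 CPM after 24 h and at 331.1 and 332.8 CPM after 48 h. In shATF4 cells it stood at 171.8, 168.6 and 178.7 CPM, then at 91.08, 108.6 and 130.4 CPM, then at 114.0 and 118.1 CPM. Every shATF4 library lay below every scramble library. ATF4 was 2.19-fold lower untreated, 2.53-fold lower at 24 h and 2.86-fold lower at 48 h (log2 changes -1.13 ± 0.09, -1.34 ± 0.09 and -1.52 ± 0.11, SE; adjusted p = 6.42e-08, 2.7e-09 and 1.62e-08, edgeR's quasi-likelihood test). Lower ATF4 RNA was thus present at all 3 states, and ATF4 protein was not measured here.

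Promoter sequence was available for 7 of the 9 members, all but PSPH and SHMT2. It came as 11 promoters of 300 bases from RefSeq on GRCh38.p14, each running from 250 bases before to 50 after an annotated start. These were searched on both strands for the C/EBP-ATF composite element TGATGNAAN, the E-box CACGTG and the CCAAT box CCAAT, which do not overlap in the members. The composite element was found in MTHFD1L alone among the 7, in 3 of its 4 promoters, and in 3.61% of 35116 promoters of the same length. These 3 promoters overlap and hold the same site, which begins at -129, at -90 or at 25, the last lying after the start. The CCAAT box was found in 8 of the 11 promoters, from 6 of the 7 members, and in 34.6% of all promoters. For the E-box this was 4 of the 11, from MTHFD1L and MTHFD1, and 7.26% of all promoters. The same 3 MTHFD1L promoters share their CCAAT box and E-box as well. Windows around matches are shown for the members whose levels the results turn on, 5′ to 3′ on the strand of the gene, with the matches in capitals. A match describes letters only, not binding.
PHGDH, chr1:119711850-119711879, plus strand, CCAAT box at -71 to -67 from the start: tgagtatttccgtCCAATcaaaaggagact
PSAT1, chr9:78296975-78297124, plus strand, CCAAT boxes at -113, -83 and -52: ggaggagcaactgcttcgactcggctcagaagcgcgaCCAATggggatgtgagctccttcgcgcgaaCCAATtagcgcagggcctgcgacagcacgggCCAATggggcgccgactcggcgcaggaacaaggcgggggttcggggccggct
SHMT1, chr17:18363564-18363713, minus strand, a CCAAT box at -76 and its reverse complement at -25: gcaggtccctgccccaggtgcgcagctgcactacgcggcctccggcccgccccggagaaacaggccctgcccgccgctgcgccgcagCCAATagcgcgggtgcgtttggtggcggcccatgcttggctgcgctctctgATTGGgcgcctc
MTHFD1L, chr6:150866346-150866375, plus strand, composite element at -129 to -121: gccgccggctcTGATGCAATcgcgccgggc
MTHFD2, chr2:74198412-74198561, plus strand, CCAAT boxes at -184 and -74: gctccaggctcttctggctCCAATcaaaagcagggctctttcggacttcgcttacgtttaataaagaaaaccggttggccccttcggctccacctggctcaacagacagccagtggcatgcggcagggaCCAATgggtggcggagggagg
MTHFD1, chr14:64388325-64388352, plus strand, E-box at -15 to -10: gccagtccctaagCACGTGggttgggtt

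Per kb of gene length, PSAT1 and SHMT2 had the highest levels in untreated scramble cells, 106.7 ± 6.73 and 106.1 ± 2.61 CPM per kb (SD, n = 3), a pair that did not differ beyond their spread. MTHFD1L (43.23 ± 1.31), PSPH (40.99 ± 2.84), MTHFD1 (38.12 ± 1.37) and MTHFD2 (36.88 ± 4.3) followed, and neighbours within these 4 lay within the spread of one another. SHMT1 stood at 9.861 ± 0.216, PHGDH at 5.82 ± 0.316 and MTHFD2L at 1.091 ± 0.158 CPM per kb. After 48 h in 5-FU the scramble order was PSAT1 (54.52 ± 4.12, n = 2), SHMT2 (34.8 ± 1.48), PSPH (31.67 ± 1.88), MTHFD1 (25.9 ± 0.827), MTHFD2 (21.73 ± 1.37), MTHFD1L (9.54 ± 0.029), SHMT1 (8.875 ± 0.0502), PHGDH (6.773 ± 0.117) and MTHFD2L (0.951 ± 0.0596). MTHFD1L had moved from the third place to the sixth. The gene length is that of the authors' table, and how it was derived is not given. A gene whose listed length exceeds that of the transcripts present would read low on this scale. The longest entries were MTHFD2L at 9819 bp, MTHFD1 at 9377 bp and PHGDH at 9217 bp.

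**Figure D1:**
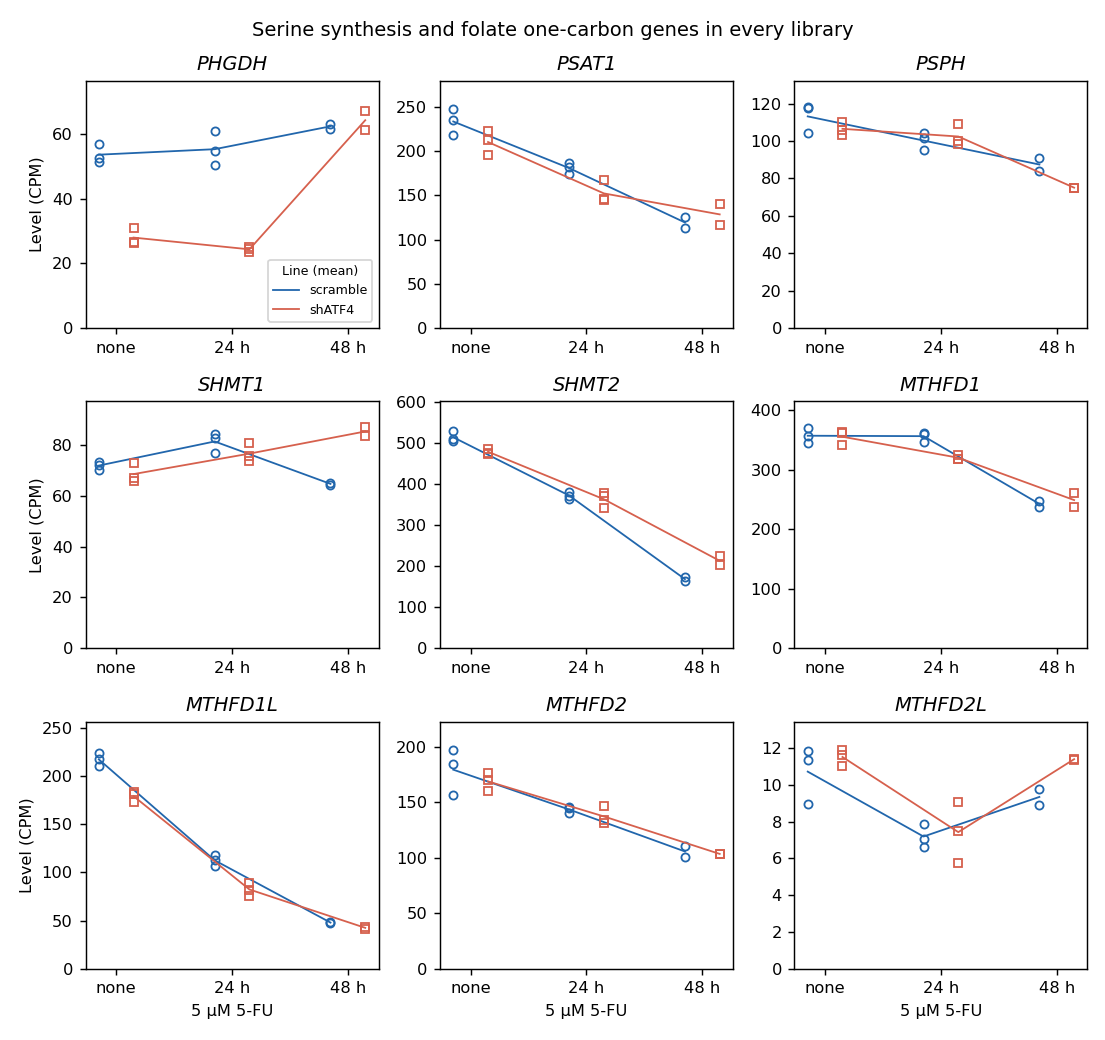
Level in CPM of each member (vertical axis, from 0) in every library, by line and by time in 5 µM 5-FU (horizontal axis). Circles are scramble libraries, squares shATF4 libraries and lines join group means; PHGDH in shATF4 cells lies at 23.58 to 30.94 CPM before 48 h and at 61.31 to 67.31 CPM at 48 h, while SHMT2 and MTHFD1L fall in both lines.

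The lines were compared at each state to ask which enzymes differ when ATF4 is reduced. In untreated cells 2 of 9 members were lower in shATF4 cells, PHGDH and MTHFD1L, and none was higher, where 1.84% of all 17309 tested genes were lower and 1.08% higher (2.92% either way). At 24 h, 3 were lower, PHGDH, PSAT1 and MTHFD1L, and none higher, against 9.89% of all genes lower and 10.5% higher (20.4% either way). At 48 h none was lower and 2 were higher, SHMT1 and SHMT2, against 5.53% of all genes lower and 3.92% higher (9.45% either way). The members' median log2 change was -0.09, -0.09 and 0.04 at the 3 states, and that of all tested genes -0.01, 0.01 and 0.00. PSPH, MTHFD1, MTHFD2 and MTHFD2L passed at no state.

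**Figure D2:**
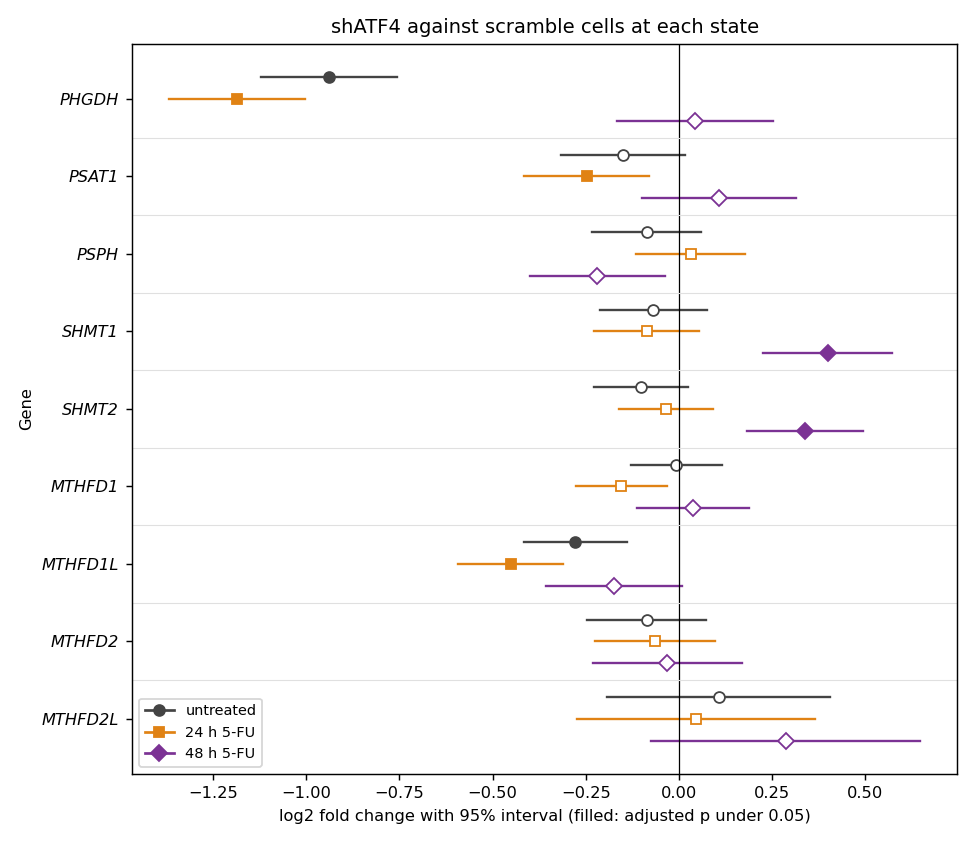
Log2 fold change of shATF4 over scramble cells with its 95% interval (horizontal axis) for each member (vertical axis) in untreated cells, at 24 h and at 48 h of 5-FU; filled symbols mark an adjusted p under 0.05. PHGDH lies at -0.94 and -1.19 before 48 h and at 0.04 at 48 h, while SHMT1 and SHMT2 lie to the right of 0 at 48 h.

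PHGDH (ENSG00000092621, chr1:119648411-119744226 on GRCh38, plus strand), the entry enzyme of serine synthesis, showed the largest difference between the lines of the 9 members. In untreated cells it stood at 52.55, 56.94 and 51.44 CPM in scramble libraries and at 30.94, 26.63 and 26.34 CPM in shATF4 libraries. At 24 h it stood at 50.42, 60.84 and 54.77 CPM against 23.58, 25.09 and 24.34 CPM. Both sets were apart with no overlap, and PHGDH was 1.92-fold lower untreated (-0.94 ± 0.09, SE, adjusted p = 1.02e-06) and 2.27-fold lower at 24 h (-1.19 ± 0.09, adjusted p = 2.01e-08). Because these are bulk RNA samples, fewer cells with the transcript and less transcript per cell cannot be told apart here or in any result below.

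At 48 h the PHGDH difference was no longer measured. The scramble libraries stood at 61.67 and 63.18 CPM and the shATF4 libraries at 61.31 and 67.31 CPM. The groups overlapped, and the log2 change was 0.04 with a 95% interval from -0.17 to 0.25 (adjusted p = 0.855), which leaves out the differences measured at the earlier states. ATF4 RNA in the same shATF4 libraries stood at 114.0 and 118.1 CPM, no higher than in the untreated shATF4 libraries. RNA levels do not give the amount or activity of ATF4 protein, and the part of ATF4 in the PHGDH level at 48 h was not tested.

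**Figure D3:**
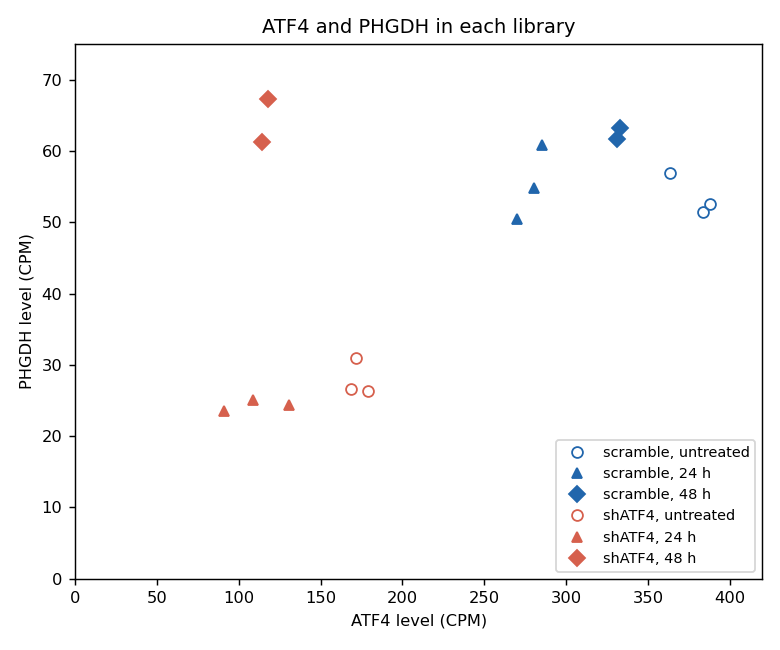
RNA level of PHGDH (vertical axis, CPM) against that of ATF4 (horizontal axis, CPM) in each of the 16 libraries, coloured by line and shaped by time in 5-FU. The 6 shATF4 libraries before 48 h have low levels of both genes, whereas the 2 shATF4 libraries at 48 h pair 114.0 and 118.1 CPM of ATF4 with 61.31 and 67.31 CPM of PHGDH.

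The return was a rise in the shATF4 line. From untreated to 48 h PHGDH rose 2.3-fold in shATF4 cells (1.20 ± 0.09, adjusted p = 9.35e-10), and from 24 h to 48 h 2.64-fold (1.40 ± 0.09, adjusted p = 4.88e-10). In scramble cells it was 1.16-fold higher at 48 h than untreated (0.22 ± 0.09, adjusted p = 0.0465). That last call was close to the threshold. It was lost with no low-count filter (adjusted p = 0.185) and without any one of scramble untreated replicates 1 and 3, scramble 24 h replicates 1 and 3, scramble 48 h replicates 1 and 2, shATF4 untreated replicate 2, shATF4 24 h replicates 1 and 2, and shATF4 48 h replicates 1 and 2 (adjusted p = 0.0513 to 0.215). The 48 h responses of the lines differed by 0.98 ± 0.13 on the log2 scale (adjusted p = 0.000338), with adjusted p at most 0.00445 under every alternative run. At 24 h the PHGDH response did not pass in scramble cells (0.04, adjusted p = 0.704) or in shATF4 cells (-0.20, adjusted p = 0.0775), and the responses differed by -0.25 with an interval from -0.50 to 0.01 (adjusted p = 0.294).

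Not all genes that were low in untreated shATF4 cells lost their call at 48 h. Of the 319 genes lower in untreated shATF4 cells, 223 (69.9%, and 13% of the 1712 lower at 24 h) were lower at 24 h as well. At 48 h, 132 (41.4%, and 13.8% of the 958 lower at 48 h) were still called lower and 6 (1.88%) were called higher. The others, most of the 319, were not called either way at 48 h. The 48 h groups held 2 libraries each, so a lost call alone does not show a return. These comparisons share no libraries but rest on the same pair of lines. PHGDH was among the genes called lower at 24 h and among this larger group not called at 48 h.

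PSAT1 (ENSG00000135069, chr9:78297143-78330093, plus strand), the aminotransferase of the pathway, differed little between the lines and fell with 5-FU. In scramble libraries it stood at 235.4, 218.0 and 247.2 CPM untreated, at 186.2, 174.1 and 182.2 CPM at 24 h and at 125.7 and 112.9 CPM at 48 h. In shATF4 libraries it stood at 222.3, 212.7 and 196.0 CPM, then at 144.5, 145.3 and 166.8 CPM, then at 139.9 and 117.0 CPM. The groups of the lines overlapped untreated and at 48 h and were apart at 24 h, where PSAT1 was 1.19-fold lower in shATF4 cells (-0.25 ± 0.08, adjusted p = 0.0335). That call was lost without scramble 24 h replicate 1 (0.0926) or 3 (0.0746), without shATF4 24 h replicate 1 (0.0638) or 2 (0.117), and in a fit of those groups alone (0.0592). At 48 h of 5-FU PSAT1 had fallen 1.96-fold in scramble cells (-0.97 ± 0.09, adjusted p = 1.38e-08) and 1.64-fold in shATF4 cells (-0.71 ± 0.09, adjusted p = 1.1e-06), and the difference of these responses did not pass (0.26, interval -0.01 to 0.52, adjusted p = 0.34). From 24 h to 48 h it fell 1.52-fold in scramble cells (-0.60 ± 0.09, adjusted p = 3.03e-05) and 1.19-fold in shATF4 cells (-0.25 ± 0.09, adjusted p = 0.0305). The latter call was lost without shATF4 24 h replicate 3 (0.0935), the library with the high 7SL share, without shATF4 48 h replicate 2 (0.411), with upper-quartile scaling (0.149) and in a fit of those groups alone (0.129).

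PSPH (ENSG00000146733, chr7:56011051-56051604, minus strand), the phosphatase that completes serine synthesis, was called between the lines at no state and fell with 5-FU by 48 h. Scramble libraries held 117.5, 104.2 and 118.0 CPM untreated, 95.10, 101.5 and 104.3 CPM at 24 h and 91.15 and 83.79 CPM at 48 h. ShATF4 libraries held 103.3, 105.9 and 110.5 CPM, then 99.81, 108.9 and 98.70 CPM, then 75.09 and 75.07 CPM. The 48 h libraries lay below the untreated ones in each line. PSPH fell 1.29-fold in scramble cells at 48 h (-0.37 ± 0.08, adjusted p = 0.000401) and 1.42-fold in shATF4 cells (-0.51 ± 0.08, adjusted p = 1.63e-05). At 24 h in scramble cells it stood at -0.17 ± 0.07 (adjusted p = 0.0501), a value at the threshold that passed without scramble untreated replicate 2 (0.0138), whose mitochondrial share was high, without shATF4 24 h replicate 2 (0.0492) or 3 (0.0303), without both libraries that stood apart (0.00453) and with a replicate block (0.0443).

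5-FU was compared with no drug in each line to ask how the enzymes respond to the drug. At 24 h 5 members fell (PSAT1, SHMT2, MTHFD1L, MTHFD2 and MTHFD2L) and 1 rose (SHMT1) in scramble cells, where 22.2% of all tested genes fell and 21.8% rose (44% either way). In shATF4 cells at 24 h the same 5 and MTHFD1 fell and none rose, 6 of 9, where 21.2% of all genes fell and 23.2% rose (44.4% either way). At 48 h 6 fell and 1 rose in scramble cells (30% of all genes fell and 30.6% rose, 60.7% either way), and 6 fell and 2 rose in shATF4 cells (28.7% and 29.6%, 58.3% either way). PSAT1, PSPH, SHMT2, MTHFD1, MTHFD1L and MTHFD2 were the 6 that fell at 48 h in both lines. The members' median log2 change at 48 h was -0.56 in scramble and -0.51 in shATF4 cells, and that of all genes 0.03 in both lines. Comparisons at 24 h and at 48 h share the untreated libraries of their line, and those between the lines use the same libraries again.

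**Figure D4:**
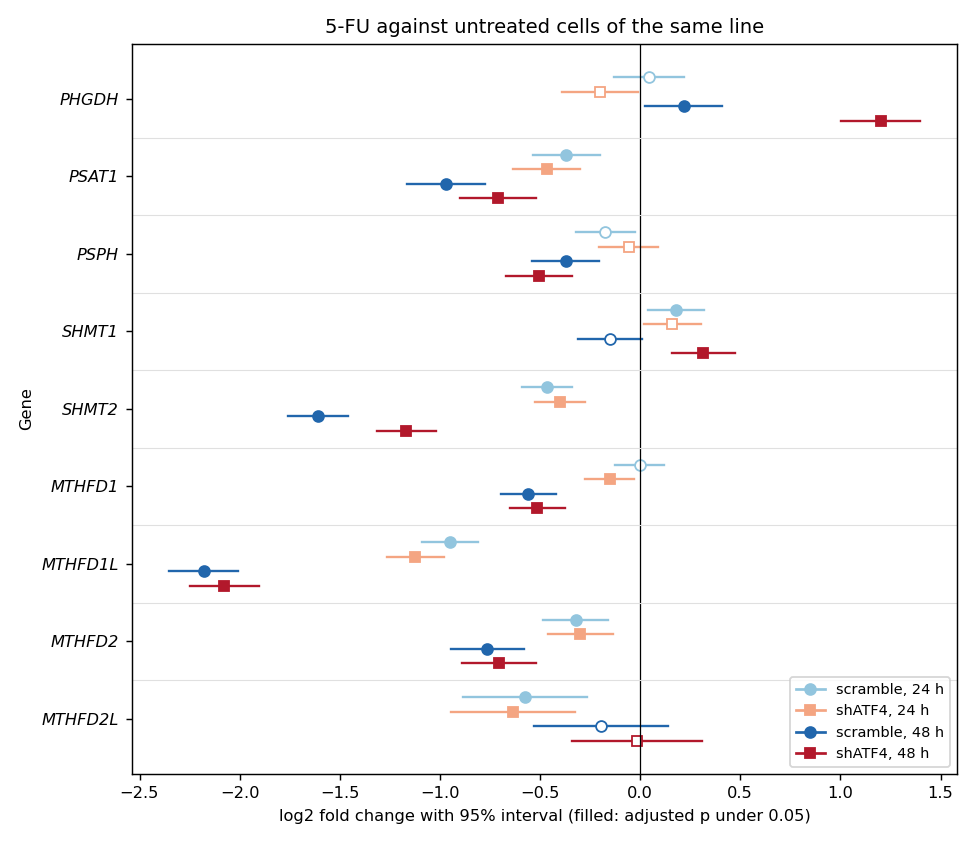
Log2 fold change of 5-FU over untreated cells of the same line with its 95% interval (horizontal axis) for each member (vertical axis), at 24 h and 48 h in each line; filled symbols mark an adjusted p under 0.05. MTHFD1L lies furthest to the left, at -2.18 and -2.08 at 48 h, and PHGDH in shATF4 cells at 48 h lies furthest to the right, at 1.20.

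The times were also compared with each other. From 24 h to 48 h in scramble cells PSAT1, SHMT1, SHMT2, MTHFD1, MTHFD1L and MTHFD2 fell, 6 of 9, and none rose, where 19.5% of all genes fell and 18.8% rose (38.3% either way). In shATF4 cells PSAT1, PSPH, SHMT2, MTHFD1, MTHFD1L and MTHFD2 fell, 6 of 9, and 2 rose, PHGDH and MTHFD2L, where 24.5% fell and 23.7% rose (48.2% either way). The summed level of the 9 members went from 1705 to 1797 CPM in untreated scramble libraries to 1391 to 1420 CPM at 24 h and to 893.6 and 922.4 CPM at 48 h. In shATF4 libraries it went from 1596 to 1629 CPM to 1229 to 1300 CPM and to 955.5 and 989.9 CPM. SHMT2 and MTHFD1 contributed most to the sum in all 6 groups.

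SHMT2 (ENSG00000182199, chr12:57229327-57234935, plus strand), the mitochondrial serine hydroxymethyltransferase, was among the highest members and fell strongly. Scramble libraries held 508.4, 527.7 and 504.3 CPM untreated, 371.2, 379.9 and 363.9 CPM at 24 h and 173.4 and 163.3 CPM at 48 h. ShATF4 libraries held 473.9, 476.1 and 484.8 CPM, then 340.2, 371.2 and 376.8 CPM, then 201.8 and 224.1 CPM. The 3 states were apart with no overlap in each line. At 48 h SHMT2 had fallen 3.05-fold in scramble cells (-1.61 ± 0.07, adjusted p = 1.46e-13) and 2.25-fold in shATF4 cells (-1.17 ± 0.07, adjusted p = 1.93e-11).

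The fall of SHMT2 at 48 h was smaller in shATF4 cells. The responses differed by 0.44 ± 0.10 (adjusted p = 0.015), and SHMT2 was 1.26-fold higher in shATF4 than in scramble cells at 48 h (0.34 ± 0.07, adjusted p = 0.00587), although it was not lower in these cells untreated or at 24 h by the test (-0.10 and -0.04, adjusted p = 0.486 and 0.728). Both calls at 48 h depended on single libraries. The difference of responses was lost without scramble 48 h replicate 2 (0.112) or shATF4 48 h replicate 2 (0.104), and the difference between the lines without the same libraries (0.0922 and 0.0959).

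SHMT1 (ENSG00000176974, chr17:18327860-18363563, minus strand), the cytosolic enzyme of the same reaction, did not follow SHMT2. Scramble libraries held 73.27, 70.13 and 72.01 CPM untreated, 76.76, 82.71 and 84.37 CPM at 24 h and 64.88 and 64.35 CPM at 48 h. ShATF4 libraries held 65.64, 66.95 and 72.79 CPM, then 73.43, 75.54 and 80.53 CPM, then 83.38 and 87.04 CPM. Scramble libraries were highest at 24 h and lowest at 48 h, whereas shATF4 libraries were highest at 48 h.

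In tests SHMT1 rose 1.24-fold in shATF4 cells at 48 h (0.32 ± 0.08, adjusted p = 0.00119), stood at -0.15 in scramble cells (adjusted p = 0.0933), and was 1.32-fold higher in shATF4 than in scramble cells (0.40 ± 0.08, adjusted p = 0.0037). The 48 h responses differed by 0.47 ± 0.11 (adjusted p = 0.0202). This difference was lost without scramble untreated replicate 1 (0.057), scramble 48 h replicate 1 (0.09) or 2 (0.105), shATF4 untreated replicate 1 (0.0549) or 2 (0.0622), or shATF4 48 h replicate 2 (0.095). The rise of SHMT1 in scramble cells at 24 h (0.18 ± 0.07, adjusted p = 0.038) was also lost without any one of scramble untreated replicates 1 (0.0613), 2 (0.0898) and 3 (0.0671) or scramble 24 h replicates 2 (0.0849) and 3 (0.121), without both libraries that stood apart (0.053) and with no low-count filter (0.18). SHMT1 overlaps SMCR8 on the opposite strand, and the strand setting of the counting is not given, so reads of the 2 genes may be shared. SMCR8 had 911 to 1364 counts per library and its log2 change between the lines at 48 h was 0.01 (adjusted p = 0.98). The same test called SMCR8 between the lines at 24 h (0.22, adjusted p = 0.0364). In shATF4 cells it was called at 24 h of 5-FU (0.20, adjusted p = 0.0301) and from 24 h to 48 h (-0.26, adjusted p = 0.0126).

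MTHFD1L (ENSG00000120254, chr6:150865549-151101887, plus strand), the mitochondrial enzyme that releases formate, had the largest fall with 5-FU of the 9 members in both lines and at both times. Scramble libraries held 210.5, 217.1 and 223.6 CPM untreated, 112.4, 107.0 and 118.0 CPM at 24 h and 48.0 and 47.8 CPM at 48 h. ShATF4 libraries held 180.9, 183.2 and 172.8 CPM, then 88.83, 82.17 and 75.76 CPM, then 41.66 and 43.22 CPM. At each state every shATF4 library lay below every scramble library.

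At 48 h MTHFD1L had fallen 4.53-fold in scramble cells (-2.18 ± 0.08, adjusted p = 1.35e-14) and 4.22-fold in shATF4 cells (-2.08 ± 0.08, adjusted p = 3.95e-14). At 24 h it had fallen 1.93-fold (-0.95 ± 0.07) and 2.18-fold (-1.12 ± 0.07). Between the lines it was 1.21-fold lower in untreated shATF4 cells (-0.28 ± 0.07, adjusted p = 0.0214) and 1.37-fold lower at 24 h (-0.45 ± 0.07, adjusted p = 0.000119), and at 48 h the difference of -0.17 did not pass (interval -0.36 to 0.01, adjusted p = 0.24). The untreated call was lost without scramble untreated replicate 1 (0.0511) or 3 (0.0686) or without shATF4 untreated replicate 1 (0.0665), 2 (0.0657) or 3 (0.112). The responses of the lines did not differ by the test at 24 h (-0.17, adjusted p = 0.343) or 48 h (0.10, interval -0.12 to 0.33, adjusted p = 0.724). MTHFD1L is the member with the composite element shown above.

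MTHFD2 (ENSG00000065911, chr2:74198562-74217565, plus strand), the mitochondrial dehydrogenase and cyclohydrolase, fell by like amounts in both lines. Scramble libraries held 184.5, 156.6 and 197.6 CPM untreated, 144.7, 140.8 and 145.5 CPM at 24 h and 110.5 and 101.1 CPM at 48 h. ShATF4 libraries held 176.8, 170.0 and 160.2 CPM, then 131.4, 133.8 and 147.0 CPM, then 103.7 and 103.5 CPM. The lines overlapped untreated, at 24 h and at 48 h, and the times within a line did not.

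MTHFD2 fell 1.7-fold by 48 h in scramble cells (-0.76 ± 0.09, adjusted p = 2.38e-07) and 1.63-fold in shATF4 cells (-0.71 ± 0.09, adjusted p = 7.67e-07). The responses differed by 0.06 with an interval from -0.20 to 0.31 (adjusted p = 0.885). Between the lines the log2 changes were -0.09, -0.06 and -0.03, with intervals of -0.25 to 0.07, -0.23 to 0.10 and -0.23 to 0.17. A difference between the lines as large as that of PHGDH in untreated cells thus lay outside all 3 intervals.

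MTHFD2L (ENSG00000163738, chr4:74114174-74303099, plus strand), a paralogue of MTHFD2 with the lowest level of the 9, had another course. Scramble libraries held 11.34, 8.940 and 11.86 CPM untreated, 7.072, 7.857 and 6.631 CPM at 24 h and 9.752 and 8.925 CPM at 48 h. ShATF4 libraries held 11.89, 11.62 and 11.02 CPM, then 9.046, 7.464 and 5.765 CPM, then 11.36 and 11.42 CPM. In both lines the 24 h libraries were lowest.

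At 24 h MTHFD2L had fallen 1.49-fold in the scramble line (-0.57 ± 0.15, adjusted p = 0.00356) and 1.55-fold in the shATF4 line (-0.64 ± 0.15, adjusted p = 0.00152). From 24 h to 48 h it rose 1.54-fold in shATF4 cells (0.62 ± 0.16, adjusted p = 0.00323) and stood at 0.38 ± 0.17 in scramble cells (adjusted p = 0.0749). At 48 h it stood at -0.20 in scramble and -0.02 in shATF4 cells against untreated cells (adjusted p = 0.309 and 0.942).

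MTHFD1 (ENSG00000100714, chr14:64388031-64463457, plus strand), the cytosolic enzyme, fell in both lines by 48 h. Scramble libraries held 356.7, 344.9 and 370.6 CPM untreated, 346.9, 362.4 and 360.7 CPM at 24 h and 237.3 and 248.3 CPM at 48 h. ShATF4 libraries held 362.9, 342.6 and 361.6 CPM, then 317.8, 318.8 and 324.6 CPM, then 237.3 and 261.2 CPM. In scramble cells the 24 h libraries overlapped the untreated ones, and in shATF4 cells they lay below them.

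MTHFD1 fell 1.47-fold by 48 h in scramble cells (-0.56 ± 0.07, adjusted p = 3.32e-07) and 1.43-fold in shATF4 cells (-0.51 ± 0.07, adjusted p = 1.16e-06). At 24 h it stood at 0.00 in scramble cells (adjusted p = 0.972) and at -0.15 ± 0.06 in shATF4 cells (adjusted p = 0.0411). The latter call was lost without scramble untreated replicate 1 (0.054), without shATF4 untreated replicate 1 (0.121) or 3 (0.113), without shATF4 24 h replicate 2 (0.0924), and with median-of-ratios size factors (0.0507), upper-quartile scaling (0.121), no low-count filter (0.103) or those groups alone (0.0885). MTHFD1 overlaps ZBTB25, with 162 to 417 counts per library, and 2 antisense genes with at most 87 counts, all on the opposite strand. By the same test ZBTB25 fell at 24 h in shATF4 cells (-0.68, adjusted p = 0.000226) and rose there from 24 h to 48 h (0.94, adjusted p = 1.26e-05). It was higher in shATF4 than in scramble cells at 48 h (0.64, adjusted p = 0.0091), and its other comparisons did not pass. The part of shared reads in the MTHFD1 values was not tested. For the members other than SHMT1 and MTHFD1, overlapping genes had at most 16 counts and the named pseudogenes of the family at most 4 counts per library.

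The test of whether the 5-FU response differed between the lines called none of the 9 members at 24 h by edgeR's quasi-likelihood test, none at an unadjusted p under 0.05 and none with DESeq2, where 0.947% of all genes were called higher and 1.18% lower (2.13% either way). At 48 h it called 3, PHGDH, SHMT1 and SHMT2, all toward higher levels in shATF4 cells, where 1.3% of all genes were called in that direction and 1.44% in the other (2.74% in all). PSAT1, MTHFD1, MTHFD1L, MTHFD2 and MTHFD2L had positive differences that did not pass, from 0.05 to 0.26, and PSPH one of -0.13. The knockdown differences at 48 h draw on the same 48 h libraries.

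Ratios between paired enzymes, taken per kb within each library, changed with 5-FU. The ratio of SHMT2 to SHMT1 was 10.4, 11.3 and 10.5 in untreated scramble libraries and 10.9, 10.7 and 10 in untreated shATF4 libraries. At 24 h it was 6.49 to 7.28 and 6.98 to 7.4, and at 48 h 4.02 and 3.82 in scramble against 3.64 and 3.88 in shATF4 libraries. Although both genes differed between the lines at 48 h, their ratio overlapped.

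The ratio of mitochondrial MTHFD1L to cytosolic MTHFD1 fell from 1.1, 1.18 and 1.13 in untreated scramble libraries to 0.378 and 0.359 at 48 h. In shATF4 libraries it fell from 0.931, 0.998 and 0.893 to 0.328 and 0.309, below scramble at each state. The ratio of PSAT1 to PHGDH was 16.1 to 20.2 in untreated scramble and 30.3 to 33.6 in untreated shATF4 libraries. At 48 h it was 8.58 and 7.53 against 9.61 and 7.32, and the lines overlapped. Library scaling multiplies all genes of a library alike and leaves these ratios as they are.

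**Figure D5:**
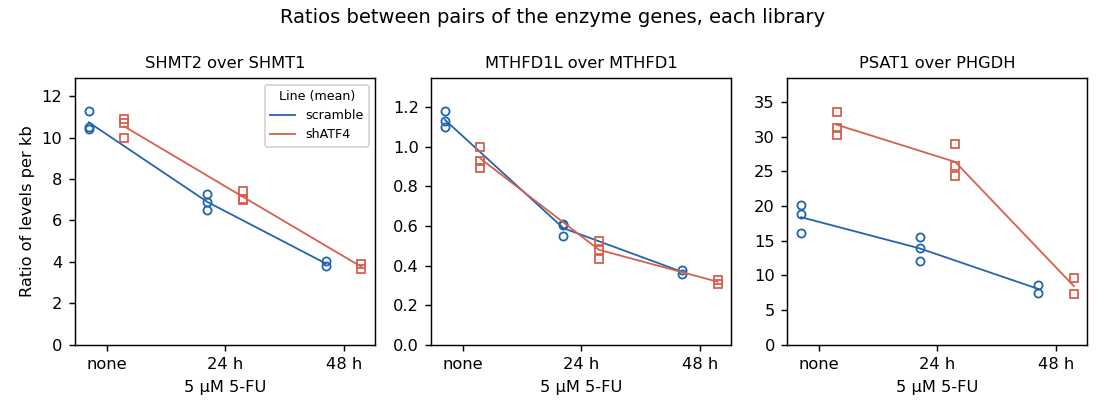
Ratio of levels per kb (vertical axis, from 0) for SHMT2 over SHMT1, MTHFD1L over MTHFD1 and PSAT1 over PHGDH in each library, by time in 5 µM 5-FU (horizontal axis); circles are scramble and squares shATF4 libraries, and lines join group means. The first ratio falls from between 10 and 11.3 untreated to between 3.64 and 4.02 at 48 h, and the lines part in the PSAT1 to PHGDH ratio before 48 h only.

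Across the 16 libraries, as a description over points that fall into 6 groups and share time in 5-FU, 6 members moved together. Pearson's r of log2 CPM among PSAT1, PSPH, SHMT2, MTHFD1, MTHFD1L and MTHFD2 ran from 0.79 (PSAT1 with PSPH) to 0.96 (PSAT1 with MTHFD1L and with MTHFD2). PHGDH had r from -0.46 to -0.22 with these 6. SHMT1 had r between -0.28 and 0.03 with them and MTHFD2L between -0.13 and 0.20.

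Among all genes whose mean level reached 10 CPM, those most like PHGDH over the 16 libraries were CKAP4, which encodes an endoplasmic reticulum membrane protein (r = 0.97), the kinase gene MAP4K4 (0.921) and the intermediate filament gene VIM (0.916). For PSAT1 they were FAM98B (0.982), the RNA methyltransferase gene NSUN2 (0.982) and DLD (0.981), which is in the glycine cleavage and carrier list below. For SHMT2 they were the transketolase gene TKT, the dipeptidase gene CNDP2 and ELAC2, each at 0.99. For MTHFD1L they were DLAT (0.993), BMS1 (0.991) and PINX1 (0.989), and for MTHFD2 EIF3M (0.99), CCT2 (0.988) and the arginyl-tRNA synthetase gene RARS (0.988). These values rest on the same groups and carry no test.

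The other genes of the pathway were followed in 4 lists. In untreated cells none of 18 other folate enzymes and carriers, 6 glycine cleavage and mitochondrial serine carrier genes, 10 methionine cycle genes and 14 serine and glycine transport and use genes was called between the lines, where 2.92% of all genes were called. In these lists 2, 1, 1 and 4 genes had an unadjusted p under 0.05, and DESeq2 also called none. The smallest p values in each list belonged to FPGS (-0.25, adjusted p = 0.223), SFXN1 (-0.14, adjusted p = 0.342), AHCYL2 (0.24, adjusted p = 0.354) and SPTLC1 (-0.30, adjusted p = 0.105). SPTLC1, a subunit of serine palmitoyltransferase, passed without scramble untreated replicate 2 (0.0237), without shATF4 24 h replicate 3 (0.0496), without both (0.00294) and with no low-count filter (0.0172). The next by p were TYMS (-0.18) and SLC25A32 (0.78), SFXN2 (0.18) and DLD (-0.12), CHDH (-0.15) and AHCY (-0.09), and GCAT (-0.36) and SLC38A2 (-0.20), with adjusted p from 0.142 to 0.59. Of these SLC38A2 passed without both libraries that stood apart (0.0213). The list medians were 0.05, -0.13, -0.05 and -0.11, beside -0.01 for all tested genes.

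With 5-FU some of these genes were called between the lines. At 24 h, where 9.89% of all genes were lower and 10.5% higher in shATF4 cells, 4 of the 14 transport and use genes were lower and 1 was higher. The lower ones were the transporter gene SLC1A4 (-0.58 ± 0.12, adjusted p = 0.00202), the serine racemase gene SRR (-0.54 ± 0.16, adjusted p = 0.0197), and SPTLC1 (-0.32 ± 0.10, adjusted p = 0.023) and SPTLC2 (-0.29 ± 0.07, adjusted p = 0.00727) of serine palmitoyltransferase. PTDSS1, a phosphatidylserine synthase gene, was the higher one (0.43 ± 0.06, adjusted p = 3.68e-05). The SRR call was lost without scramble 24 h replicate 1 (adjusted p = 0.121) and in a fit of those groups alone (0.0564), and the SPTLC1 call without scramble 24 h replicate 1 (0.0825) or 3 (0.0647) or shATF4 24 h replicate 2 (0.076). At 48 h, where 5.53% of all genes were lower and 3.92% higher, the transporter genes SLC38A2 (-0.57 ± 0.10, adjusted p = 0.000681) and SLC6A9 (-0.83 ± 0.19, adjusted p = 0.00829) were lower. The SLC6A9 call was lost without scramble 48 h replicate 2 (adjusted p = 0.125) or shATF4 48 h replicate 2 (0.122).

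In the methionine list edgeR's quasi-likelihood test called none of 10 genes at 24 h (1 at an unadjusted p under 0.05, and 1 with DESeq2) and 1 at 48 h, AHCYL1, which was higher (0.31 ± 0.07, adjusted p = 0.00732). That call was lost without scramble 48 h replicate 1 (0.0561) or 2 (0.0919) or shATF4 48 h replicate 1 (0.0707). Of the 6 glycine cleavage and carrier genes the same test called none at 24 h (2 at an unadjusted p under 0.05, and 1 with DESeq2) and none at 48 h (2 unadjusted, and 0 with DESeq2).

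With 5-FU for 48 h in scramble cells, 5 of 18 folate enzyme and carrier genes rose and 6 fell, beside 30.6% and 30% of all tested genes. In shATF4 cells 4 rose and 6 fell, beside 29.6% and 28.7% of all genes, so the counts of this list were near those shares in both lines. FOLR1, the folate receptor, rose 5.85-fold in scramble cells (2.55 ± 0.13, adjusted p = 7.45e-13). GGH, which trims glutamates from folates, rose 2.29-fold (1.20 ± 0.08), while FPGS, which adds them, fell 2.16-fold (-1.11 ± 0.11). TYMS, which encodes the thymidylate synthase that 5-FU blocks, fell 1.26-fold in both lines (-0.33 ± 0.08 in scramble and -0.34 ± 0.08 in shATF4 cells, adjusted p = 0.00179 and 0.0018).

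Of the 6 glycine cleavage and mitochondrial serine carrier genes tested, 4 fell and 1 rose in scramble cells at 48 h (30% and 30.6% of all tested genes), and 5 fell and 1 rose in shATF4 cells (28.7% and 29.6%). The gene that rose in both lines was GLDC, which lay near the floor. It had 0 to 3 counts untreated and 12 to 13 at 48 h in scramble libraries, and 0 to 1 and 3 to 11 in shATF4 libraries. Among the 6 genes SFXN2 fell 2.84-fold (-1.51 ± 0.15), DLD 1.87-fold (-0.90 ± 0.10) and SFXN1, a mitochondrial serine carrier, 1.62-fold (-0.69 ± 0.08) in scramble cells. Of 10 methionine cycle genes 7 fell and 2 rose in scramble cells (30% and 30.6% of all genes), and 7 fell and 1 rose in shATF4 cells (28.7% and 29.6%). The choline dehydrogenase gene CHDH fell 2.59-fold (-1.37 ± 0.09), AHCY, which hydrolyses S-adenosylhomocysteine, 1.81-fold (-0.85 ± 0.07) and its relative AHCYL1 1.74-fold (-0.80 ± 0.07).

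Of 14 genes of serine and glycine transport and use, 4 rose and 4 fell in scramble cells at 48 h, near the 30.6% and 30% of all tested genes. In shATF4 cells 5 rose and 7 fell, beside 29.6% and 28.7% of all genes. The neutral amino acid transporter genes SLC38A1 and SLC1A4 moved in opposite directions in scramble cells, SLC38A1 at -1.08 ± 0.08 and SLC1A4 at 1.05 ± 0.14 (adjusted p = 2.11e-10 and 1.04e-06). SDSL, a serine dehydratase relative, rose 5.62-fold (2.49 ± 0.24). The list medians in scramble cells at 48 h were 0.03, -0.80, -0.66 and -0.04, beside 0.03 for all genes and -0.56 for the 9 members. Of the listed genes, AMT, MAT1A, BHMT, BHMT2, DMGDH and SDS did not pass the low-count filter, with at most 74 counts over all libraries.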

How the data were processed

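RNA sequencing was done on 16 libraries of SW620 cells, from poly(A)-selected RNA, per the labels' protocols. The authors deposited raw read counts per gene; the submitters' processing notes list featureCounts 1.5.0-p3 and the build GRCh38 (hg38). Neither the aligner nor the strand setting is given in the sources used here. The gene length of the authors' table was used for levels per kb, and the coordinates of 9 of 9 members equal GENCODE 29.

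Counts were filtered with filterByExpr and scaled by TMM in edgeR 4.0.16 under R 4.3.3, which kept 99.9% of counts in 17309 genes. A quasi-likelihood negative binomial model with 6 groups was fitted to all 16 libraries (10 residual degrees of freedom), for 11 comparisons, with Benjamini-Hochberg adjustment over all genes tested and a call at an adjusted p under 0.05. The procedure was tested on simulated data for the untreated knockdown comparison alone, with the same spread set for every gene. The 5-FU responses, the 48 h comparisons and the interactions were not checked in this way. Alternatives were other scalings, no filter, DESeq2 1.42.0, the compared groups alone, a replicate block and leaving out libraries. Text names the members, ATF4, the 3 genes most like 5 members, and up to 3 genes of smallest p per list in the untreated knockdown and 48 h scramble comparisons. SMCR8, ZBTB25, PTDSS1, SLC6A9, TYMS at 48 h and the list genes called between the lines with 5-FU were named after their values were seen. Members and lists were chosen with earlier results of these data known. No replicate pair agreed within sampling noise. Between the lines with 5-FU, the result of 1 of the lists is not reported here.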

Additional observations from a re-analysis of the deposited data

Results flagged for a closer look

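The following genes had 5-FU responses that differed between the lines by the interaction test of edgeR's quasi-likelihood model, given as the response in shATF4 minus that in scramble cells on the log2 scale. At 48 h PHGDH differed by 0.98 (responses 1.20 in shATF4 and 0.22 in scramble cells), SHMT1 by 0.47 (0.32 and -0.15) and SHMT2 by 0.44 (-1.17 and -1.61). The PHGDH call held under every alternative run. Those of SHMT1 and SHMT2 were lost on leaving out certain single libraries, with adjusted p up to 0.105 and 0.112.

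SLC6A9, which encodes a glycine transporter, differed by -1.06 at 48 h (adjusted p = 0.0213). It stood at 10.06 ± 1.04 CPM untreated (SD, n = 3) and 4.574 ± 0.673 CPM at 48 h (n = 2) in shATF4 cells, and at 8.575 ± 1.28 and 8.141 ± 1.03 CPM in scramble cells. The call was lost without scramble untreated replicate 1 (0.0575), scramble 48 h replicate 2 (0.149), shATF4 untreated replicate 3 (0.0551) or shATF4 48 h replicate 2 (0.138).

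PTDSS1, which makes phosphatidylserine, differed by 0.33 at 24 h (adjusted p = 0.0407), with 238.3 ± 6.3 CPM at 24 h and 200.7 ± 1.1 CPM untreated in shATF4 cells against 176.8 ± 2.79 and 186.9 ± 9.94 CPM in scramble cells (SD, n = 3 each). The call was lost in 16 of 23 alternatives, with adjusted p up to 0.137 (without scramble 24 h replicate 1).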

How the results depend on the processing

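Of 51 called results for single members, 42 kept their call and direction under every alternative run, and no called result changed direction. The others are given with the genes above. The number of members called moved in most comparisons, and the smaller moves on leaving out 1 library come first. In the 24 h knockdown comparison 2 to 4 members were lower, against 3 in the main fit. At 24 h of 5-FU 5 to 6 fell in scramble and 5 to 6 in shATF4 cells. From 24 h to 48 h 6 to 7 fell in scramble cells, and 5 to 6 fell and 2 to 3 rose in shATF4 cells. The larger moves follow. Leaving out 1 library at a time gave 1 to 2 lower in the untreated knockdown comparison, 1 to 2 higher at 48 h knockdown, 0 to 1 higher in scramble cells at 24 h and at 48 h of 5-FU, 0 to 1 higher in shATF4 cells at 24 h, 0 to 1 higher from 24 h to 48 h in scramble cells and 1 to 3 higher in the 48 h interaction. Without both libraries that stood apart, 1 member was lower in the 48 h knockdown comparison (PSPH, adjusted p = 0.0348), 0 were higher at 24 h in scramble cells and 1 was higher from 24 h to 48 h in scramble cells. With no low-count filter 0 were higher in scramble cells at 24 h and at 48 h. With upper-quartile scaling 1 was higher at 24 h in shATF4 cells, and 2 were higher from 24 h to 48 h in scramble cells, as they were with only the groups compared.

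Counts over all genes moved more. Leaving out 1 library gave 277 to 774 called genes in untreated knockdown, 2067 to 3885 at 24 h, 600 to 2463 at 48 h, 4363 to 7485 from 24 h to 48 h in scramble cells, 65 to 1188 in the 24 h interaction and 136 to 991 in the 48 h interaction. Without both libraries that stood apart the counts were 891 in untreated knockdown, 3021 in 48 h knockdown, 647 in the 24 h and 1204 in the 48 h interaction. With only the groups compared they were 2189 in 24 h knockdown, 2748 in 48 h knockdown and 173 in the 24 h interaction. The 24 h interaction had 798 with no filter and 696 with DESeq2. The cause was not tested. MTHFD1 in the 24 h knockdown comparison (-0.16, adjusted p = 0.0653) passed with median-of-ratios size factors (0.0443), upper-quartile scaling (0.0402) and DESeq2 (0.0202).

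Upper-quartile scaling moved the median of all genes at 48 h of 5-FU to 0.17 in scramble and 0.16 in shATF4 cells, and the share of calls that were higher to 61.4% and 61.2%, from 50.5% and 50.7%. It moved that share to 60.1% from 49.5% at 24 h in scramble cells, to 60.2% from 49.1% between the times in scramble cells and to 30.7% from 44.4% in the 24 h interaction.

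Little sign of pairing by replicate number was seen: 1 of 36 same-numbered pairs had a correlation of deviations over 0.1 (range -0.08 to 0.12). A weak pairing could go unseen by this check. With a replicate block, 0 members were higher at 48 h in scramble cells (PHGDH 0.20, adjusted p = 0.0571), 1 was higher at 24 h in shATF4 cells (SHMT1, 0.041), and the 24 h interaction had 644 genes.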
